A study of Mus musculus with 12 samples.

Results

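Dorsal hippocampus of trained mice was compared with that of house controls, 6 libraries against 6, with the Mbnl2 genotype of the mice as a covariate. These 12 RNA sequencing libraries are all those of the study, and the comparison asks which transcripts differed with training in the same direction in both genotypes. The 4 groups of 3 were WT house controls, WT trained mice, Mbnl2 KO house controls and Mbnl2 KO trained mice. All were males of the 129sv/C57BL/6j strain, 4 to 5 months old, and the titles carry 12 different animal numbers. Mbnl2 encodes a muscleblind-like regulator of RNA splicing. The labels describe neither the training task, nor the time from training to dissection, nor the targeted allele.

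Neurons that fire strongly take up calcium, which activates kinases and transcription factors such as CREB and SRF within minutes. These switch on immediate early genes, first those for further transcription factors (Fos, Egr and Nr4a families) and for effectors at the synapse and in signalling feedback (Arc, Homer1, Dusp5). A later wave of secreted proteins, channels and GTPases follows. In the hippocampus this programme is a standard readout of recent neuronal activity and is needed for lasting memory.

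The libraries held 19737929 to 27427076 counts, and 3 counts corresponded to 0.109 to 0.152 CPM, the counts scaled to a common library total. Mbnl2 (chromosome 14, 120275669 to 120431697, mm10) had 315 to 365 CPM in the 6 libraries labelled WT and 454 to 542 CPM in the 6 labelled KO. This count sums all exons and does not check the genotype labels, so genotypes below are those of the labels. Between treatments Mbnl2 had 398 ± 80.6 CPM in house controls and 435 ± 82.3 CPM in trained mice (SD, n = 6 each), with an edgeR adjusted p of 0.376. Transcripts of neighbouring tissue varied widely between libraries: summed choroid plexus markers ran from 165 to 23200 CPM. The animal numbers were split here into 2 series of 8 and 4 libraries, and the second holds 1 library of each group. In the first, house controls are animals 1188, 1189, 1192 and 1194 and trained mice 1196, 1231, 1238 and 1240. Treatment and animal number thus largely go together there, and the part of this in the results was not tested.

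No gene passed the threshold of the main test. The quasi-likelihood test of edgeR, with p-values adjusted by Benjamini and Hochberg's method and a threshold of 0.05, called 0 of 15622 genes higher (0%) and 0 lower (0%), and the smallest adjusted p was 0.159, for Rasl11b. At an unadjusted p under 0.05 there were 779 higher genes (4.99%) and 1104 lower genes (7.07%). DESeq2 on the same counts called 31 genes higher (0.203% of 15287) and 50 lower (0.327%), with median differences of 1.36-fold and 1.33-fold. Among all genes tested, 31 (0.198%) were higher and 45 (0.288%) lower in every trained than in every house control library.

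Activity genes made up much of what DESeq2 called higher. Of the 31 higher genes, 16 belonged to 3 lists of activity-induced genes with 97 tested members, and 0 of the 50 lower genes did. The 16 were the transcription factor genes Fos, Fosb, Junb, Egr1, Egr2, Egr4, Nr4a1, Nr4a2 and Crem, the rapid effectors Arc, Homer1, Dusp5 and Dusp6, and the delayed genes Rasl11b, Kcnv1 and Gpr3. The lists had been chosen with results of these data known, so this overlap is a description.

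The DESeq2 calls depended on single libraries and on covariates, and few genes were called in every fit. In 12 fits that each left out 1 library, 13 of the 31 higher and 9 of the 50 lower genes were called every time. Fos and Rasl11b were called in all 16 alternative DESeq2 fits, and Arc, Dusp5, Egr4 and Nr4a1 in 15. With marker levels of choroid plexus, thalamus and striatum as covariates, DESeq2 called 10 higher and 5 lower, of which 4 and 0 were among the calls from all 12 libraries without them. Those 4 were Fos, Rasl11b, Dusp5 and Serpinb8, and Arc, Egr4 and Nr4a1 were not called. The number of higher genes was 323 without KO trained replicate 2, 143 without WT house control replicate 1 and 116 without KO house control replicate 1. It was 17 without WT house control replicate 2, 18 without WT trained replicate 1 and 19 without KO trained replicate 1. The number of lower genes was 172, 177, 189, 13, 20 and 18 in the same order of libraries, 11 without WT trained replicate 2, 26 without WT house control replicate 3 and 25 without WT trained replicate 3. Leaving out 3 house control libraries with high choroid plexus or thalamus markers (replicates 2 and 3 of WT and replicate 3 of KO mice), DESeq2 called 9 higher and 6 lower, of which 7 and 3 were among the calls from all 12 libraries. These 3 all come from the house controls, so that only 1 WT house control, replicate 1, remained in this fit. WT trained replicate 3, which was kept, had summed choroid plexus markers of 12020 CPM against 11690, 23200 and 4477 CPM in the 3.

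Fos, a classical immediate early gene, encodes a subunit of the AP-1 transcription factor and was among the largest differences. Fos (chromosome 12, 85473890 to 85477273) had 3.497, 3.01 and 10.7 CPM in WT house controls and 13.6, 14.98 and 10.2 CPM in WT trained mice. In KO mice it had 6.32, 6.70 and 4.73 CPM in house controls and 19.7, 19.1 and 20.6 CPM after training. The KO groups did not overlap, and in WT mice only house control replicate 3 lay within the trained range. Over all 12 libraries Fos was 2.74-fold higher in trained mice, a log2 fold change of 1.45 with an SE of 0.29 (adjusted p = 0.256 by edgeR and 0.00065 by DESeq2). Without WT house control replicate 3 the log2 fold change was 1.85 and edgeR called it (adjusted p = 0.000392). The same tool called Fos in the first animal series alone, where treatment and animal number largely went together (log2 fold change 1.85, adjusted p = 0.0284). Without the 3 libraries rich in neighbouring tissue, a fit with 1 WT house control, the log2 fold change was 1.70. Both fits also lack WT house control replicate 3, the house control with the highest Fos. In no fit over both genotypes that kept this library did edgeR call Fos.

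The promoters of 5 activity genes are shown because their transcripts differed in the same direction. They are the 5 members of the 2 rapid activity lists with the smallest edgeR p that have an entry in the RefSeq promoter table (GRCm38.p6). Each runs 5′ to 3′ on the gene's strand from 250 bases before to 50 after the RefSeq start. Capitals mark the cAMP response half-site TGACG, the core of the site that CREB binds, on either strand, so that CGTCA is the site on the other strand, and, in Dusp5, also 2 adjoining CArG boxes, the site of SRF.
Fos: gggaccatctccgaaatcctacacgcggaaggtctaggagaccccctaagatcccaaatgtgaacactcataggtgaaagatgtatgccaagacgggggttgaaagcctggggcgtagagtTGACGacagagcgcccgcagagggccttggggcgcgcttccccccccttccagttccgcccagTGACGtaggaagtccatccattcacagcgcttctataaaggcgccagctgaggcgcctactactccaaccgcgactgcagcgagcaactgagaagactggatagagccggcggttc
Nr4a1: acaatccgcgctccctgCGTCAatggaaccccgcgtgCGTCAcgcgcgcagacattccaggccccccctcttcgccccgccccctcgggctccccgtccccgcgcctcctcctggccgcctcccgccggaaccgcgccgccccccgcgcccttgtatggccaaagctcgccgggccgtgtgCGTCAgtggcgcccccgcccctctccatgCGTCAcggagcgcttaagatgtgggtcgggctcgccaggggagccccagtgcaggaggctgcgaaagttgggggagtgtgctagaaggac
Egr4: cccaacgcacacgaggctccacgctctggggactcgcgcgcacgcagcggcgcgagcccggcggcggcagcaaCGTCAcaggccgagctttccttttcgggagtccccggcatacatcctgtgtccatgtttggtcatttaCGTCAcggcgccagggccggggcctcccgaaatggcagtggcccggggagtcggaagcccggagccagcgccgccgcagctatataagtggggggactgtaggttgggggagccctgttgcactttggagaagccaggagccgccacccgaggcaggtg
Dusp5: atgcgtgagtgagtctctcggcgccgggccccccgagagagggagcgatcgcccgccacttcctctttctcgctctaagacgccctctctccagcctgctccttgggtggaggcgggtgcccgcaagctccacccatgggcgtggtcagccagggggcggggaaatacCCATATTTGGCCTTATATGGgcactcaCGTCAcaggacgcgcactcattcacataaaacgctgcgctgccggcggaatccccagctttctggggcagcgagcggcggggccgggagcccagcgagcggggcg
Homer1: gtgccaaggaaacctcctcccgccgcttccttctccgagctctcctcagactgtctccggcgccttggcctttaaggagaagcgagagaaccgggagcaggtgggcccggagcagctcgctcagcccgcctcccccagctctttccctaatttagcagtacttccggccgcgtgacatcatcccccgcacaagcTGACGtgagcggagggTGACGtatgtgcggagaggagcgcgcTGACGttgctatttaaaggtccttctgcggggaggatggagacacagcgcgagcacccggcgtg

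In build coordinates these are chr12:85473640-85473939 (plus strand, Fos), chr15:101266596-101266895 (plus, Nr4a1), chr6:85513540-85513839 (minus, Egr4), chr19:53528895-53529194 (plus, Dusp5) and chr13:93303507-93303806 (plus, Homer1, 1 of 2 listed starts). Matches of TGACG numbered 2 in Fos, 4 in Nr4a1, 2 in Egr4, 1 in Dusp5 and 3 in Homer1. Among 27025 promoters, the first that RefSeq lists for each gene symbol, 21% hold this half-site. This compares with 30 of 49 (61.2%) for members of the 2 lists that matched the table, out of 61. The full site TGACGTCA, which contains the half-site on both strands, is in 1.88% of all promoters and 5 of the 49, and in 0 of the 5 shown. The CArG box is in 1.57% of all and 3 of the 49. The EGR site GCGTGGGCG is in 0.625% of all and 0 of the 49. A match describes letters only and is no measured binding site.

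**Figure D1:**
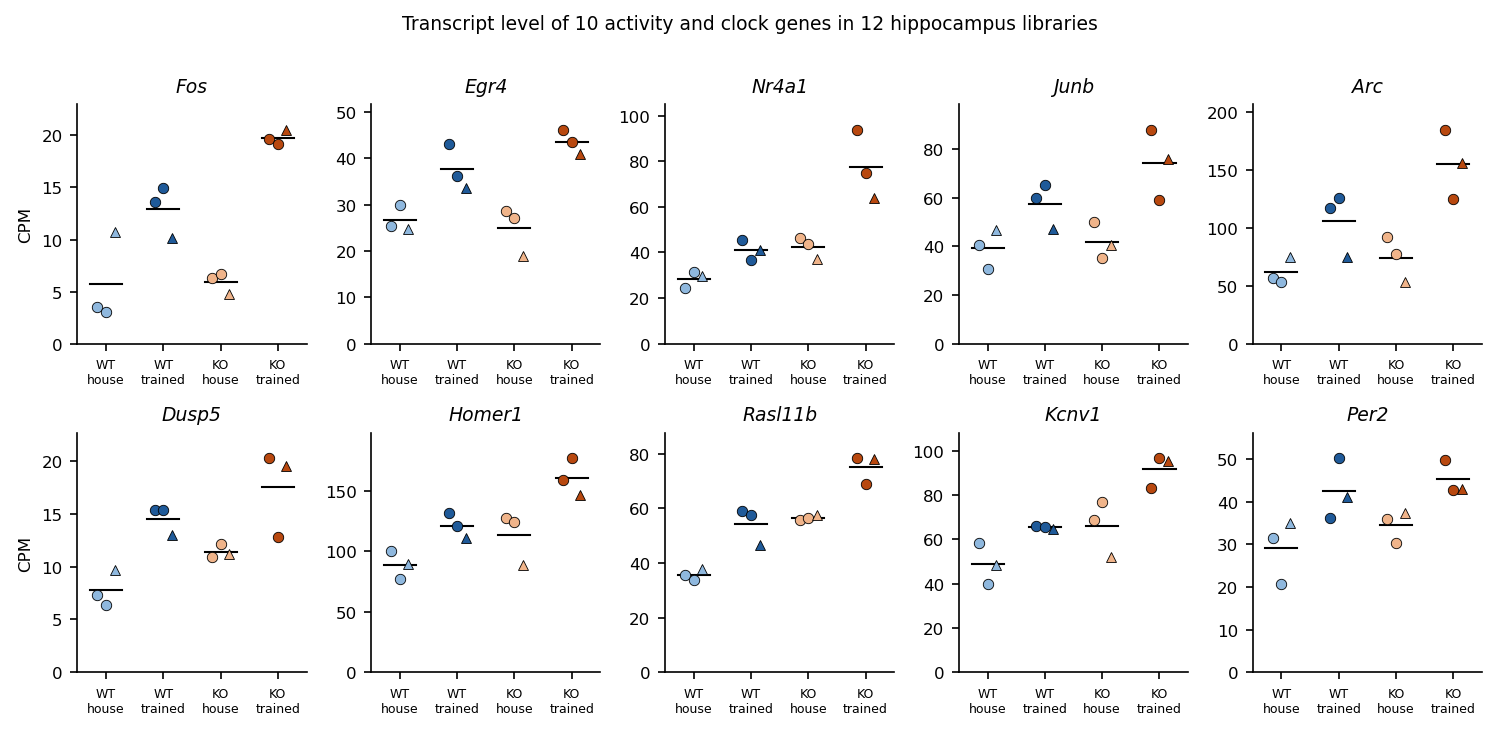
Level in CPM (y axis, linear, from 0) of 10 genes in each library, by genotype and treatment; circles are the first animal series, triangles the second, and bars the mean of 3 libraries. All trained libraries lie above the house controls of the same genotype except for Fos, where WT house control replicate 3 (10.7 CPM) overlaps WT trained replicate 3 (10.2 CPM).

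Transcription factor genes of the immediate early class were higher in trained mice as a group. Of 26 tested members 22 had positive log2 fold changes, against 47.7% of all genes, and the median was 0.32 against -0.01 over all genes. At an unadjusted p under 0.05, 14 were higher and 0 lower, against 4.99% and 7.07% of all genes, and DESeq2 called 9. Fosl1 was too low to be tested. The list's median was 0.39 in WT and 0.30 in KO mice, and stayed between 0.27 and 0.38 under 23 alternatives that included leaving out each library and adding marker levels of neighbouring tissue as covariates. The mean log2(CPM + 1) over the list ran from 4.10 to 4.46 in house controls and from 4.46 to 4.82 in trained mice, and the treatments did not overlap within either genotype.

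Members of the Egr family, zinc finger factors that bind GC-rich promoters, gave differences of various sizes. Egr4 (chromosome 6, 85511121 to 85513589) had 25.4, 29.8 and 24.7 CPM in WT house controls, 43.1, 36.3 and 33.6 in WT trained mice, 28.7, 27.2 and 18.9 in KO house controls and 46.2, 43.6 and 41.0 in KO trained mice. All 6 trained libraries exceeded all 6 house controls. The difference was 1.57-fold, with a log2 fold change of 0.65 (SE 0.11) and an adjusted p of 0.256 by edgeR and 0.000214 by DESeq2. Egr1 had 119 ± 39.3 CPM in house controls and 222 ± 80.6 in trained mice (SD, n = 6 each), with no overlap within either genotype. Egr2, a low transcript, had 0.0965 to 1.90 CPM in house controls and 1.69 to 4.06 CPM after training. Its log2 fold change was 1.72 (SE 0.48), and its value of 0.0965 CPM in KO house control replicate 3 lies under 3 counts. Egr3 had 124 ± 36.3 and 169 ± 21.9 CPM (log2 fold change 0.45, SE 0.17).

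The Nr4a genes encode orphan nuclear receptors induced by calcium and cAMP. Nr4a1 (chromosome 15, 101254269 to 101274795) had 24.4, 31.5 and 29.7 CPM in WT house controls and 45.3, 36.6 and 41.2 in WT trained mice. In KO mice it had 46.4, 43.7 and 37.2 CPM in house controls and 93.9, 74.97 and 64.1 after training. The groups were separate within each genotype, and overlapped over all 12 because KO house controls reached the WT trained range. The log2 fold change was 0.70 (SE 0.12, 1.62-fold), with an adjusted p of 0.256 by edgeR and 8.09e-05 by DESeq2. Nr4a2, which is also on the neocortex marker list, likewise separated within each genotype (27.4 ± 8.93 against 50.2 ± 17.9 CPM, SD, n = 6 each, log2 fold change 0.86). Nr4a3 did not (99.9 ± 27.9 against 155 ± 36.0 CPM, DESeq2 adjusted p = 0.142).

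Junb and Fosb encode AP-1 subunits, Crem a cAMP-responsive factor, and Npas4 a factor induced by calcium entry. Junb had 40.6, 30.5 and 46.5 CPM in WT house controls, 59.7, 65.2 and 47.0 in WT trained mice, 49.9, 35.2 and 40.7 in KO house controls and 87.9, 59.1 and 75.7 in KO trained mice. Each trained library exceeded the house controls of its genotype, though narrowly in WT replicate 3. Fosb had 7.54 ± 2.82 CPM in house controls and 14.3 ± 2.20 in trained mice (SD, n = 6 each) with no overlap among the 12, and DESeq2 called both genes. Crem differed by 1.28-fold, also with no overlap within a genotype. Npas4 was not called by either tool (log2 fold change 0.85, SE 0.34), and its WT house control replicate 3 (10.6 CPM) was above WT trained replicate 3 (4.21 CPM).

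Rapid effectors and feedback regulators of signalling included 4 genes that DESeq2 called higher. Arc, which encodes a synaptic protein that forms capsids and regulates AMPA receptor endocytosis (chromosome 15, 74669083 to 74672570), had 56.6, 53.4 and 74.4 CPM in WT house controls and 117, 126 and 74.99 in WT trained mice. In KO mice Arc had 91.9, 77.0 and 53.1 CPM in house controls and 185, 125 and 156 after training. Its difference was 1.90-fold, with a log2 fold change of 0.93 (SE 0.17) and an adjusted p of 0.256 by edgeR and 0.000355 by DESeq2, and WT replicate 3 of both treatments lay within 1 CPM of each other. Dusp5, an inducible phosphatase that inactivates nuclear ERK (chromosome 19, 53529109 to 53542431), had 7.30, 6.41 and 9.71 CPM in WT house controls and 15.3, 15.3 and 13.0 in WT trained mice. In KO mice it had 10.9, 12.2 and 11.2 CPM in house controls and 20.2, 12.8 and 19.5 after training. All trained libraries lay above all house controls, and the log2 fold change was 0.76 (SE 0.13, 1.69-fold), with an adjusted p of 0.256 by edgeR. Leaving out KO trained replicate 2, where Dusp5 was lowest among KO trained mice, let edgeR call Dusp5 and Rasl11b higher, both at an adjusted p of 0.0438.

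Homer1, whose short form is an activity-induced scaffold antagonist, and Dusp6, a cytoplasmic ERK phosphatase, were further DESeq2 calls. Homer1 (chromosome 13, 93299635 to 93405129) had 101 ± 20.5 CPM in house controls and 141 ± 24.6 in trained mice, with no overlap within a genotype, and these counts do not separate its short and long forms. Dusp6 had 49.5 ± 9.67 and 67.3 ± 11.5 CPM (SD, n = 6 each). Of the 35 rapid effectors tested, 26 were positive, 13 higher at an unadjusted p and 0 lower, against 47.7%, 4.99% and 7.07% of all genes. The median log2 fold change was 0.16, with 0.14 in WT and 0.17 in KO mice, and 0.13 to 0.21 under the 23 alternatives. Dusp1 (log2 fold change 0.24, SE 0.18) and Sgk1 (0.22, SE 0.29) were not called by either tool.

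Delayed activity genes differed less as a group, apart from Rasl11b. Rasl11b encodes a small Ras-like GTPase (chromosome 5, 74195286 to 74199481) and had 35.7, 33.7 and 37.8 CPM in WT house controls and 59.0, 57.5 and 46.8 in WT trained mice. In KO mice it had 55.7, 56.3 and 57.4 CPM in house controls and 78.3, 69.1 and 78.2 after training. The 2 treatments were separate within each genotype, while KO house controls overlapped WT trained mice. The log2 fold change was 0.51 (SE 0.07, 1.42-fold, DESeq2 adjusted p = 2.94e-07). It lay between 0.47 and 0.57 under the 23 alternatives.

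Kcnv1, a silent potassium channel subunit, had 57.5 ± 13.5 CPM in house controls and 78.6 ± 15.2 in trained mice, and Gpr3, a receptor that raises cAMP, had 4.57 ± 0.673 and 6.10 ± 0.819 CPM (SD, n = 6 each). Vgf, a neurotrophin-induced secreted protein, separated within both genotypes (191 ± 39.8 against 248 ± 44.9 CPM) but was not called by DESeq2 (adjusted p = 0.121). Bdnf, which encodes the neurotrophin BDNF, had 59.1 ± 21.6 and 73.0 ± 11.8 CPM, with the trained range inside that of the house controls. Of the 36 members tested, 23 were positive and 7 higher at an unadjusted p, against 47.7% and 4.99% of all genes. The median of 0.14 was 0.06 without the 3 libraries rich in neighbouring tissue and 0.02 with marker covariates.

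The 2 genotypes shared the direction of training differences for the genes that the pooled DESeq2 test called, a property that this test favours. WT and KO contrasts use no library in common. Their log2 fold changes had the same sign for 10653 of 15622 genes (68.2%), with Pearson's r 0.36 and Spearman's rho 0.42 across genes, which are not independent and share the scaling and the tissue differences between libraries. All 81 DESeq2 calls had the same sign in both genotypes, and 65 did not overlap within either genotype. The pooled test chose these genes on the same libraries and favours both properties, so neither is a separate test. Of all genes tested, 99 higher (0.634%) and 136 lower genes (0.871%) did not overlap within either genotype. edgeR called 0 genes in WT mice (0%, 9.82% at an unadjusted p under 0.05) and 0 in KO mice (0%, 3.01%). DESeq2 called 3 higher (0.02%) and 8 lower (0.0534%) in WT mice and 4 higher (0.0256%) and 3 lower (0.0192%) in KO mice.

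**Figure D2:**
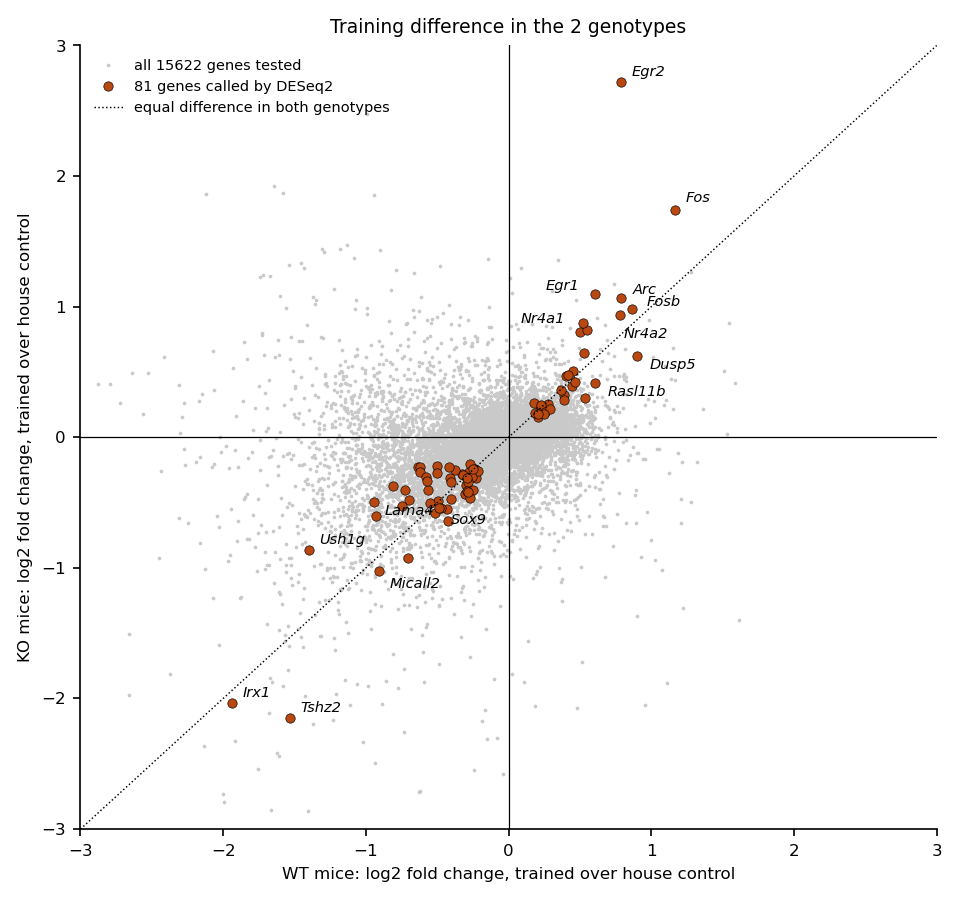
Log2 fold change of trained over house control mice in WT (x axis) and KO mice (y axis) for all genes tested (grey, 18 beyond the axes) and the 81 genes DESeq2 called over both genotypes (orange); the dotted line marks equal differences. All 81 lie in the quadrants of equal sign, with Fos, Egr2 and Arc at the upper and Irx1 and Tshz2 at the lower end.

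No training difference was shown to depend on genotype. The interaction test by edgeR called 0 genes (0%), with 235 (1.5%) at an unadjusted p under 0.05, a smallest adjusted p of 0.9997, and 0 calls by DESeq2. For Fos the log2 fold change was 1.17 (SE 0.40) in WT and 1.74 (SE 0.40) in KO mice, a difference of 0.57 (SE 0.56). For Arc it was 0.79 (SE 0.25) and 1.07 (SE 0.25), for Nr4a1 0.52 (SE 0.15) and 0.87 (SE 0.15), and for Dusp5 0.90 (SE 0.19) and 0.62 (SE 0.19). Egr2 had the widest gap among the activity genes named, 0.79 (SE 0.53) against 2.72 (SE 0.57). The 5 genes with the smallest unadjusted p of the interaction were Atp13a4, 2610035D17Rik, Wtip, Mylk and Itgb7, and each had opposite signs in the 2 genotypes.

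The authors' deposited tables, made within each genotype, call different genes. At an adjusted p under 0.05 the authors' deposited table for WT mice has 4 genes higher (0.0247% of 16188) and 15 lower (0.0927%), and that for KO mice 6 higher (0.0307% of 19558) and 8 lower (0.0409%). They share 0 genes. In the authors' deposited table for KO mice the higher genes are Arc, Egr2, Egr4, Fos, Npas4 and Nr4a1, and in that for WT mice Dusp5, Epha6, Rasl11b and Tmem59l. The authors' deposited tables give Fos a log2 fold change of 1.16 (adjusted p = 0.435) in WT and 1.75 (adjusted p = 7.66e-18) in KO mice, and Rasl11b 0.61 (adjusted p = 0.0248) and 0.42 (adjusted p = 0.071).

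The second animal series held 1 library per group and gave no test. Its WT pair had nearly equal Fos (log2 ratio -0.08), Arc (0.01) and Junb (0.01), while its KO pair had ratios of 2.096, 1.55 and 0.89. Nr4a1 (0.47 and 0.79), Egr4 (0.44 and 1.11), Dusp5 (0.42 and 0.80) and Rasl11b (0.31 and 0.44) were higher in the trained library of both pairs. Among immediate early transcription factors 20 of 26 were positive in the WT pair (median 0.13) and 16 in the KO pair (median 0.29). Of all 15622 genes, 7603 and 7696 were positive in these pairs. Other lists had larger medians in the WT pair: 0.38 for postsynaptic scaffolds, 0.38 for presynaptic genes and 0.70 for CA1 markers. Their medians in the KO pair were 0.18, 0.09 and 0.54. In the first series alone the median of the immediate early list was 0.37.

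Genes that DESeq2 called lower had mixed roles and a median difference of 1.33-fold, with 3 of the 50 beyond 2-fold. Micall2, a Rab13 effector of cell junctions (chromosome 5, 139706696 to 139736336), had 2.78, 4.21 and 3.92 CPM in WT house controls, 2.04, 1.45 and 2.34 in WT trained mice, 3.01, 2.59 and 3.23 in KO house controls and 1.26, 1.61 and 1.46 in KO trained mice. All trained libraries lay below all house controls. The log2 fold change was -0.96 (SE 0.16, 1.95-fold lower), with an adjusted p of 0.256 by edgeR and 0.000278 by DESeq2. H1f0, a linker histone of non-dividing cells, had 110 ± 6.30 CPM in house controls and 93.3 ± 2.07 in trained mice (SD, n = 6 each), and Tst, a mitochondrial sulfurtransferase, 25.4 ± 1.504 and 19.98 ± 2.31 CPM. Both also separated all 12 libraries. Ttc28 (1.28-fold lower) and Zfp36l2, an RNA-binding protein that destabilises transcripts (1.23-fold lower), separated within each genotype.

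**Figure D3:**
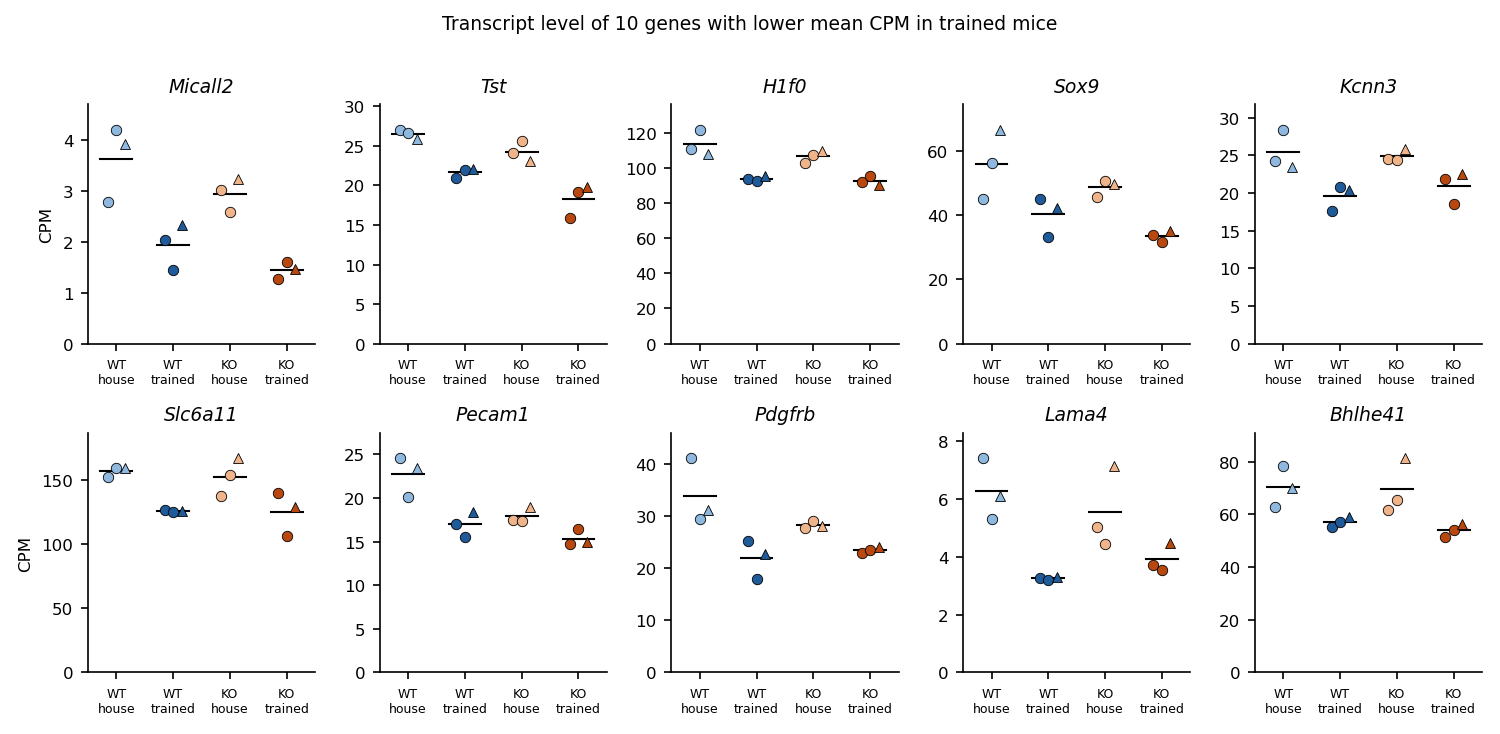
Level in CPM (y axis, linear, from 0) of 10 genes with lower means in trained mice, by genotype and treatment; circles are the first animal series, triangles the second, and bars the mean of 3 libraries. For Micall2, Tst, H1f0, Kcnn3, Pdgfrb and Bhlhe41 all trained libraries lie below all house controls.

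Astrocyte transcripts had lower means in trained mice of both genotypes. Of 14 markers tested 14 had negative log2 fold changes, with a median of -0.25 (-0.22 in WT, -0.30 in KO). At an unadjusted p under 0.05, 8 were lower, against 7.07% of all genes. In bulk tissue fewer cells of a type and less RNA per cell cannot be told apart. The mean log2(CPM + 1) of the markers ran from 7.65 to 8.05 in house controls and from 7.44 to 7.61 in trained mice, without overlap. Their summed CPM did overlap, with 5489 to 8280 in house controls and 5663 to 6888 in trained mice, and the lowest sum was that of WT house control replicate 3. Sox9, a glial transcription factor, had 45.1, 56.3 and 66.7 CPM in WT house controls, 45.2, 33.4 and 42.4 in WT trained mice, 45.6, 50.7 and 49.7 in KO house controls and 33.9, 31.6 and 35.1 in KO trained mice. DESeq2 called it (log2 fold change -0.51, SE 0.10, adjusted p = 0.00303), while WT trained replicate 1 touched the house control range. Slc6a11, a GABA transporter of astrocytes, had a log2 fold change of -0.30 (SE 0.07). The list's median lay between -0.29 and -0.12 under the 23 alternatives, with -0.12 when marker covariates were added and -0.20 without the 3 libraries rich in neighbouring tissue.

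Vascular transcripts had the same direction, with a larger median in WT than in KO mice. Of 15 markers of endothelial and mural cells 15 were negative, 9 at an unadjusted p, against 7.07% of all genes. The median of these markers was -0.35 (-0.52 in WT, -0.07 in KO), a difference between genotypes that was not tested. Markers of leptomeningeal fibroblasts had the same pattern, with 15 of 17 negative and a median of -0.71 (-1.22 in WT, -0.02 in KO). Their sums ran from 338.8 to 2322 CPM in house controls and from 310.5 to 1526 CPM in trained mice, WT house control replicate 1 had the highest mean log2(CPM + 1) of 5.16, and their part in the vascular values was not tested. Pecam1, an endothelial adhesion protein, had 20.3 ± 3.03 CPM in house controls and 16.1 ± 1.42 in trained mice, and Pdgfrb, a pericyte receptor, 31.1 ± 5.06 and 22.8 ± 2.51 CPM (SD, n = 6 each). DESeq2 called both, with all 12 libraries separated for Pdgfrb. Other vascular genes among its lower calls, named after their values were seen, were Lama4, Foxf2, Mmrn2 and Elk3. The median was -0.20 without WT house control replicate 1, whose summed vascular markers (580 CPM) were the highest, and -0.33 with marker covariates.

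Markers of neighbouring tissue also differed between the treatments. Of 15 thalamus markers 15 were negative (median -0.78), with sums of 230 to 784 CPM in house controls and 196 to 460 in trained mice, and defining genes such as Slc17a6 and Tcf7l2 were above 0 in all libraries. All 14 oligodendrocyte markers were negative (median -0.58, sums of 3433 to 14660 and 2972 to 9317 CPM), with 0 at an unadjusted p under 0.05. Choroid plexus markers were negative in WT (median -0.98) and positive in KO mice (0.34). The part of these tissue differences in the gene results was not tested. With the levels of choroid plexus, thalamus and striatum markers as covariates the log2 fold changes were 1.68 for Fos, 0.82 for Dusp5, 0.50 for Rasl11b, 0.73 for Arc, -0.38 for Sox9 and -0.47 for Pdgfrb. Other genes lost most of their difference in the same fit: Aldh1l1 went from -0.31 to -0.05, C1qb from -0.29 to -0.04 and Bdnf from 0.31 to -0.003. DESeq2 with these covariates did not call Arc, Sox9 or Pdgfrb. With these covariates edgeR called 0 genes (smallest adjusted p 0.52, 1085 at an unadjusted p under 0.05).

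**Figure D4:**
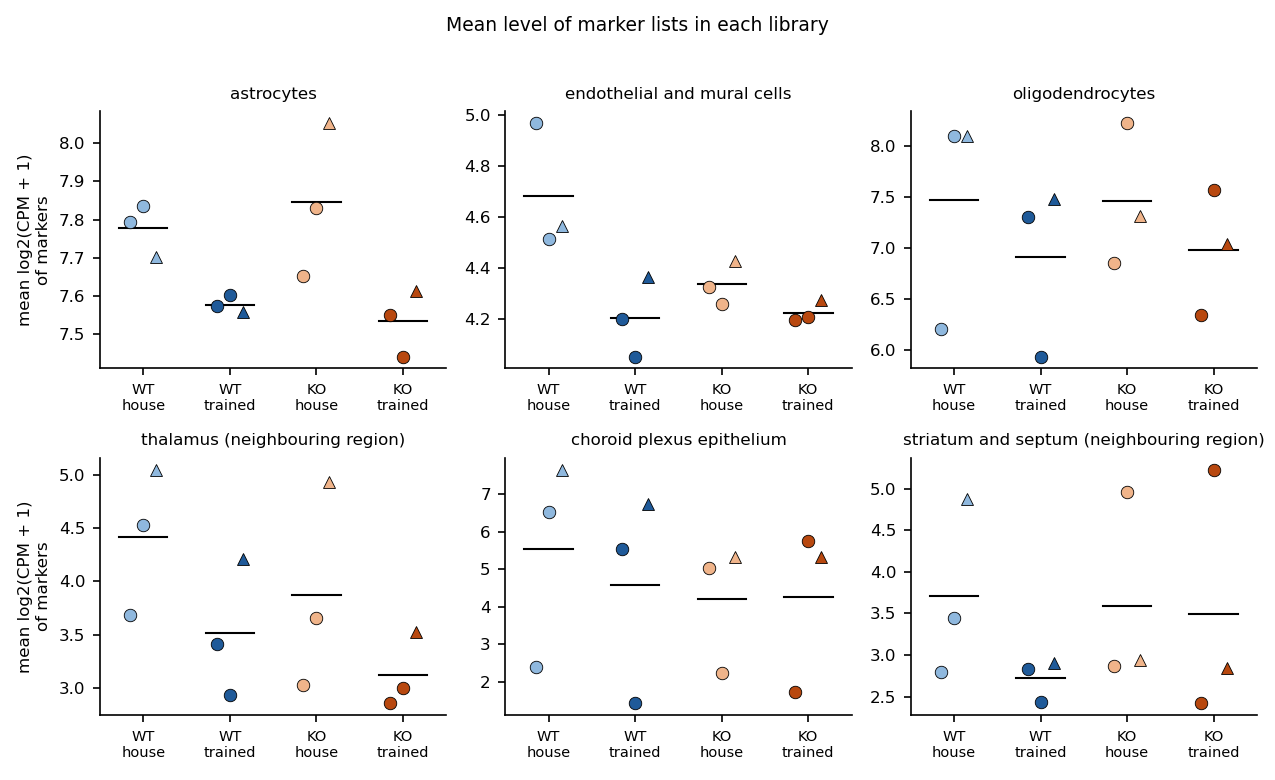
Mean log2(CPM + 1) over the members of 6 marker lists (y axes start above 0) in each library, by genotype and treatment; circles are the first animal series, triangles the second, and bars the mean of 3 libraries. Astrocyte markers are lower in all 6 trained libraries (7.44 to 7.61) than in all 6 house controls (7.65 to 8.05), while the treatments overlap for the other 5 lists.

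Synaptic and channel genes leaned towards higher values, but not in all fits. Of 51 presynaptic genes 44 were positive with a median of 0.18 (0.33 in WT, 0.07 in KO). Of 41 postsynaptic scaffold genes 38 were, also with a median of 0.18 (0.22 in WT, 0.11 in KO). At an unadjusted p under 0.05, 9 and 6 were higher and 0 lower, against 4.99% and 7.07% of all genes. The edgeR adjusted p of the lowest was 0.361 for Syt1, the calcium sensor of release, and 0.312 for Homer1, also a rapid effector above. Voltage-gated and calcium-activated channels had 50 of 61 positive and a median of 0.15 (0.20 in WT, 0.10 in KO). DESeq2 called Kcnv1, also on the delayed activity list, higher and Kcnn3, a small-conductance potassium channel that separated all 12 libraries, lower. Without the 3 libraries rich in neighbouring tissue the pooled medians of these 3 lists were 0.07, 0.03 and 0.03. Markers of CA1 neurons were positive in 9 of 10 with a median of 0.27 (0.07 in WT, 0.40 in KO). With marker covariates the pooled CA1 median was -0.15. The differences between genotypes in these medians were not tested.

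Genes induced by glucocorticoids and cytosolic chaperones leaned the same way and kept their medians without the 3 libraries, a fit with 1 WT house control. Of 25 glucocorticoid-responsive genes 18 were positive and 8 higher at an unadjusted p, against 47.7% and 4.99% of all genes, and 0 were called. The median was 0.21 (0.18 in WT, 0.22 in KO, 0.20 without the 3 libraries, 0.11 without KO trained replicate 2). This list shares Sgk1, Per1 and Errfi1 with the rapid effectors and Cdkn1a and Tiparp with the delayed activity genes. Fkbp5, a chaperone of the receptor, had 67.7 ± 14.0 CPM in house controls and 86.7 ± 13.3 in trained mice, and Zbtb16, a zinc finger factor, 70.9 ± 24.0 and 105 ± 23.2 CPM (SD, n = 6 each), both with overlap. The authors' deposited tables give Fkbp5 a log2 fold change of 0.48 in WT and 0.24 in KO mice, and Zbtb16 0.96 and 0.26. Per1, which glucocorticoids and cAMP induce, had 74.1 ± 7.08 and 88.0 ± 9.29 CPM. Of 23 heat shock proteins 19 were positive, with 9 higher and 1 lower at an unadjusted p, against 47.7%, 4.99% and 7.07% of all genes. Their median was 0.12, with a range of 0.11 to 0.15 under the 23 alternatives. Dnajb1, an HSP70 co-chaperone, had 44.5 ± 3.17 and 50.8 ± 2.13 CPM and separated all 12 libraries.

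The circadian list had no common direction, with 11 of 21 positive and a median of 0.004. Per2, a repressor of the clock, was higher in every trained library than in the house controls of its genotype (31.8 ± 6.01 against 43.9 ± 5.36 CPM, DESeq2 adjusted p = 0.0725). Bhlhe41, a further clock repressor, was lower in all 6 trained libraries (69.8 ± 8.22 against 55.4 ± 2.57 CPM, DESeq2 adjusted p = 0.0192). Times of day are not given in the labels. Dbp, a clock output gene, was not called by either tool (log2 fold change -0.26, SE 0.19).

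Several further lists had medians near that of all genes. Medians were 0.04 for endoplasmic reticulum chaperones (17 of 25 positive), 0.04 for splicing regulators (28 of 48), 0.03 for cholesterol synthesis (13 of 24), 0.01 for oxidative phosphorylation (46 of 82), 0.01 for chromatin regulators (27 of 47) and 0.01 for glutamate receptors (13 of 25). Ribosomal proteins leaned lower, with 9 of 77 positive (11.7%) and a median of -0.09, which was -0.12 without KO trained replicate 2 and -0.06 without WT trained replicate 1. Interferon-response genes had 19 of 20 negative and a median of -0.31, which was -0.04 without the 3 libraries and -0.01 with marker covariates. Perineuronal net and matrix genes had a median of -0.10, with Tnc, a glial matrix glycoprotein, at 10.8 ± 2.95 and 6.89 ± 0.854 CPM. Microglial markers had 12 of 13 negative and a median of -0.19, and -0.10 without the 3 libraries.

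**Figure D5:**
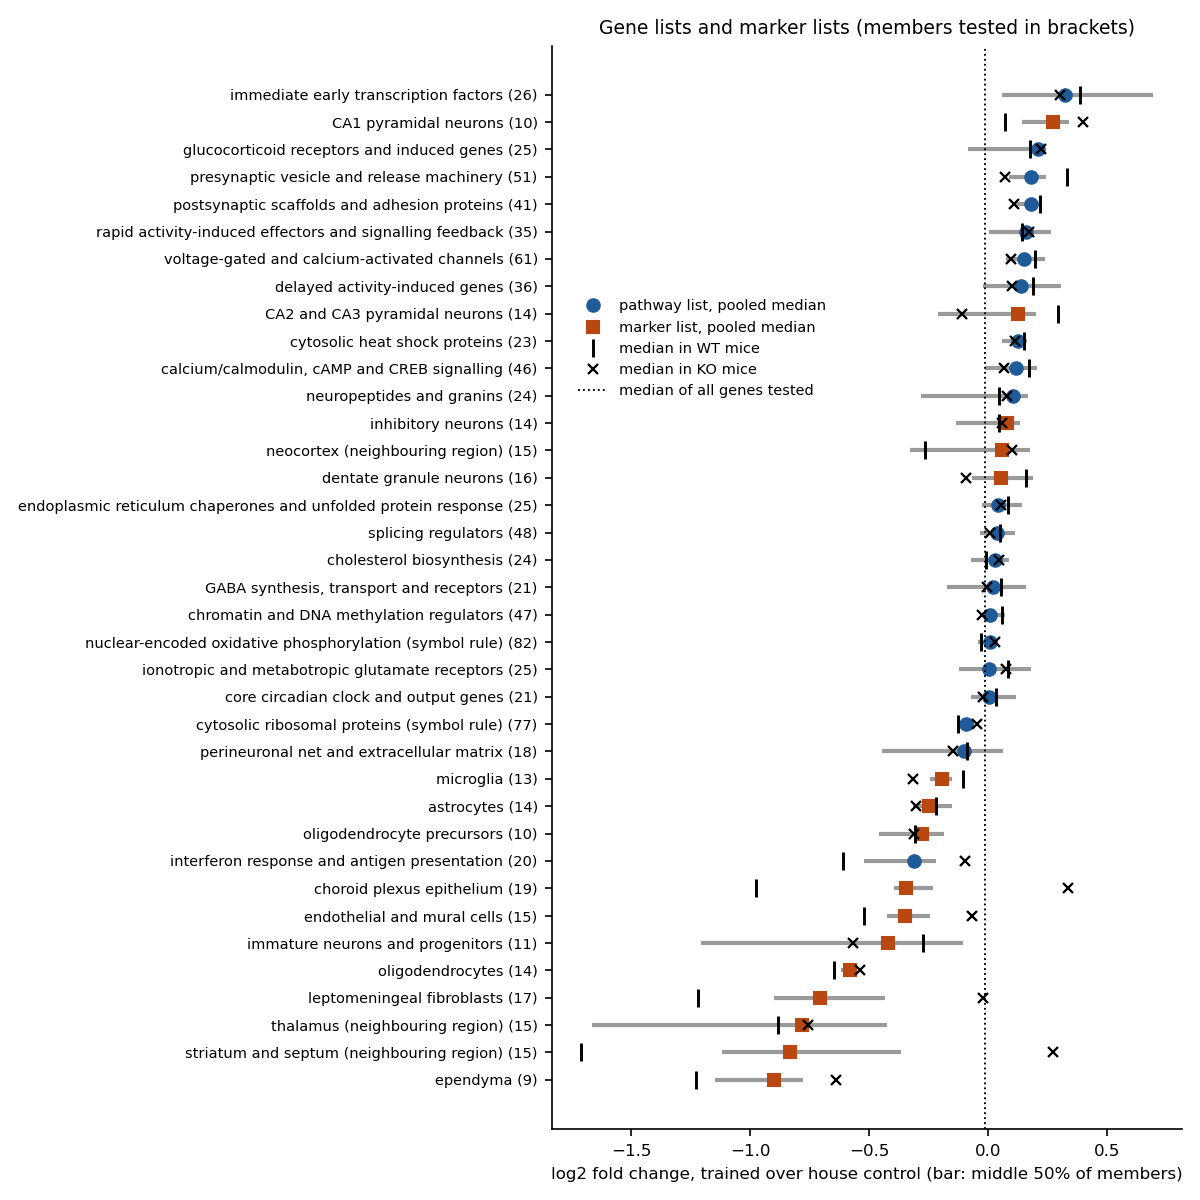
Median log2 fold change of trained over house control mice (x axis) for each list with at least 5 tested members, pooled (circles for pathway lists, squares for markers), in WT (bars) and in KO mice (crosses), with the middle 50% of members as grey lines and the median of all genes dotted. Immediate early transcription factors have the highest pooled median (0.32), and markers of ependyma (-0.90), striatum and septum (-0.83) and thalamus (-0.78) the lowest. The striatum and septum markers have opposite medians in WT (-1.71) and KO mice (0.27).

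Outside the lists, DESeq2 called 14 higher and 43 lower genes. Among the higher ones Nmt2, an N-myristoyltransferase, differed by only 1.13-fold but had little spread: 78.6 to 81.9 CPM in WT house controls, 91.3 to 93.0 in WT trained mice, 95.6 to 98.5 in KO house controls and 105 to 110.5 in KO trained mice (DESeq2 adjusted p = 2.69e-06). Nab2, a corepressor of EGR factors, had 38.0 ± 3.76 CPM in house controls and 47.9 ± 4.29 in trained mice (SD, n = 6 each) with all 12 libraries separated. Htr2a, a serotonin receptor, differed by 1.36-fold and Galnt9, a glycosyltransferase, by 1.29-fold, both without overlap within a genotype. These genes were named after their values were seen. Only 5 of the 81 calls were beyond 2-fold: Fos and Egr2 higher, and Irx1 (log2 fold change -1.99), Tshz2 (-1.84) and Ush1g (-1.13) lower. Tshz2, which is on the neocortex marker list, had 60.9 CPM in KO house control replicate 2 and 3.29 to 26.6 CPM in the other libraries. Its log2 fold change was -0.73 with marker covariates.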

How the data were processed

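RNA from dorsal hippocampus was purified on RNeasy columns and poly(A)-selected for NEBNext Ultra II libraries, per the labels' protocols. Per the submitters' processing notes, reads were handled on build mm10 with TopHat2 2.1.1 and Bowtie2 2.3.4.2, cutadapt 1.18 and HTSeq 0.9.1, and DESeq2 1.18.1 is listed too. The sources used here do not give the strand setting. The deposited files hold raw counts per gene symbol, 1 file per library, with 0 rows that name no gene. The authors' deposited tables per genotype hold a mean signal, a log2 fold change with its SE, a test score and a p-value, and only their results for training were used.

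The 15622 of 24421 genes that passed edgeR's filterByExpr (minimum count 10, minimum total 15) were scaled by TMM and tested with edgeR 4.0.16 (R 4.3.3, limma 3.58.1) quasi-likelihood fits. Genotype plus treatment was the main model with 9 residual degrees of freedom, and a model of 4 group means with 8 gave the contrasts within genotypes and their interaction. The Benjamini-Hochberg threshold was 0.05. DESeq2 1.42.0 was an alternative to this test. CPM are TMM-scaled values per library, and fold changes are those of the model. Ratios of single libraries use 0.1 CPM added to both. Scripts were tested on simulated data. Coordinates are those of GENCODE M21 genes, whose symbols matched 96.3% of the symbols in the files. Differing animal numbers name separate mice, and replicate numbers follow the order of deposition.

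The members and the 21 pathway and 17 marker lists were chosen with earlier results of these data known. Genes named were the 5 with the smallest p per direction with a mean of at least 1 CPM, up to 4 per list, a fixed set of activity and stress genes, and 5 by interaction p. Genes beyond this rule, among them several that DESeq2 called, were chosen after their values were seen. The rule for promoters asked for called genes, of which edgeR gave 0, so list members with the smallest p were taken. Alternatives were another scaling, filter, tool and model, the animal series, marker covariates and libraries left out.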

Additional observations from a re-analysis of the deposited data

Results flagged for a closer look

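Among 31 genes looked at in the 6 house control and the 6 trained libraries, 3 of 62 groups held a library that stood apart from the other 5 by Dixon's criterion, and chance gives about 1 in 20. All 3 genes had been named for a small unadjusted p of the interaction, which no gene passed after adjustment. The noncoding gene 2610035D17Rik had its highest house control value, 16.4 CPM, in KO replicate 1. Mylk, myosin light chain kinase, had its lowest trained value, 23.4 CPM, in WT replicate 2. Itgb7, an integrin subunit, had its highest trained value, 1.55 CPM, in KO replicate 3.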

How the results depend on the processing

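With edgeR, 1 gene was called higher and changed the same way in both genotypes in the first animal series alone and 1 without the 3 libraries high in choroid plexus or thalamus markers, Fos in both. Leaving out 1 library gave 0 to 2 such genes, with Fos without WT house control replicate 3 and Dusp5 and Rasl11b without KO trained replicate 2, and 0 lower genes each time. Every fit over both genotypes in which edgeR called Fos lacked WT house control replicate 3. DESeq2 called 31 higher and 50 lower, 81 the same way in both genotypes, 3 higher and 8 lower in WT and 4 higher and 3 lower in KO mice, where edgeR called 0. Leaving out 1 library gave edgeR 0 to 1 higher gene in WT mice and 0 to 1 in KO mice. Interaction calls were 0 in every fit run.

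Refits of DESeq2, chosen after seeing the data, called 11 higher and 5 lower in the first series, 9 and 6 without those 3 libraries, 153 and 78 without the 2 rich in striatum and septum transcripts (KO house control and KO trained replicate 2), and 10 and 5 with marker covariates. Leaving out 1 library gave 17 to 323 higher and 11 to 189 lower: for WT house controls 143 and 177 without replicate 1, 17 and 13 without replicate 2 and 26 lower without replicate 3, 18 and 20 without WT trained replicate 1, 11 lower without replicate 2, 25 lower without replicate 3, 116 and 189 without KO house control replicate 1, 19 and 18 without KO trained replicate 1, and 323 and 172 without replicate 2. The cause was not tested. Over the named genes 3722 alternative values kept their direction and side of the threshold, 34 passed it in addition and 36 moved, and 833 list medians stayed against 18 that moved. No called value changed sign. No paired analysis was possible because replicate numbers only follow the order of deposition. Each group holds 3 mice, and 3 counts equal at most 0.152 CPM, above the 0.0965 CPM of Egr2 in KO house control replicate 3.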
